A study of Mus musculus with 4 samples.

Results

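The glycolysis and pentose phosphate group holds 33 mouse genes for the enzymes that break glucose down to pyruvate, their key transporters and regulators, and the enzymes of the pentose phosphate pathway. The genes were chosen by their place in these pathways, with earlier results of these data known. They were matched to array probes by transcript accession and gene symbol. All 33 had a probe, and 32 gave a signal bright enough to test, among 13539 genes tested in all. The measurements come from cultured S-180 cells, a mouse sarcoma line that can be transplanted, after 12 h with 20 µM fluoxetine (2 arrays) and after 12 h without it (2 arrays). Fluoxetine is an antidepressant that blocks the serotonin transporter. Per the labels, both groups grew in RPMI with 10% serum, no vehicle is named for the untreated cells, and the samples of a group are biological replicates. Nothing says whether the cultures were grown separately, so the p-values rest on the spread among these arrays, which may be technical.

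Glycolysis takes up glucose through carriers of the SLC2A family, traps it as a phosphate ester with hexokinase, commits it with phosphofructokinase and yields pyruvate, ATP and NADH. Proliferating tumour cells commonly turn much of the pyruvate into lactate and export it through monocarboxylate carriers. The pentose phosphate pathway branches off at glucose 6-phosphate: its oxidative arm makes NADPH, and its non-oxidative arm interconverts sugars and supplies ribose 5-phosphate for nucleotides. Many of the steps have several isoenzymes encoded by separate genes, each typical of certain tissues.

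Each array carried 59305 non-control spots, of which 51.7% to 53.5% were well above background and 0 were saturated. Across 25833 probes that passed the background mark on every array, Pearson's r was 0.995 between the fluoxetine arrays, 0.993 between the control arrays and 0.976 to 0.983 between arrays of different groups. All 4 arrays lay on 1 slide and in 1 scan, with the fluoxetine arrays at positions 3 and 4 and the control arrays at positions 1 and 2, so position and treatment cannot be told apart. Of 10 mesenchymal markers, which a sarcoma line can be expected to hold, 6 were well above background on each fluoxetine array and 7 on each control array. Vim, Fn1, Sparc, Col1a1, Lgals1 and S100a6 were among them in both groups, while Col3a1, Thy1 and Pdgfrb were too dim in both. The epithelial genes Epcam, Krt8, Krt18 and Krt14 were also above background in both groups, while Cdh1, of the same list, was too dim in both. Of 10 leukocyte markers, 4 were tested, and their summed scaled signal was 61.0 and 52.8 in fluoxetine cells, against 25.5 and 27.8 in control cells, most of it from Cd68, a lysosomal glycoprotein gene, which rose by 1.39 ± 0.12. The list went both ways: Cd3e rose by 0.52, Itgam, an integrin gene of myeloid cells, fell by 1.96 (log2), each with another kept probe of opposite sign, and Csf1r stood at -0.16 without passing. The general leukocyte marker Ptprc, the macrophage gene Adgre1 and 4 more of that list were too dim in both groups. In bulk RNA, a change in the share of a cell type and a change in RNA per cell cannot be told apart, and the part of other cells in the results was not tested.

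Levels are given as scaled signal, the processed spot signal divided by the 75th percentile of its array, so that a value of 1 lies at that percentile. Probes bind with different strengths, so a scaled signal is compared between arrays and never between genes. Changes are log2 of fluoxetine over control with the standard error from limma (n = 2 arrays per group), and the words rose and fell are kept for an adjusted p under 0.05 by limma with Benjamini-Hochberg adjustment over all 13539 genes. For 1 gene alone, the smallest p that exact permutation of 4 arrays can give is 0.333.

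Of the 32 tested genes, 13 rose with fluoxetine, 1 fell and 18 did not pass, where 27.0% of all tested genes passed in either direction. The genes that rose make up 40.6% of the tested members, where 16.8% of all tested genes rose, and the gene that fell makes up 3.12%, where 10.2% of all tested genes fell. The rises ran from 1.30-fold for Slc2a3 to 2.46-fold for Eno2. The median change of the 32 genes was 0.29, against 0.06 over all tested genes. Over the 32 genes, the arrays of a group differed by a median of 0.0859 (log2) in fluoxetine cells and 0.0976 in control cells. Of the 18 that did not pass, 13 had a positive change and 5 a negative one. The fluoxetine arrays did not overlap with the control arrays for 26 of the 32 (81.2%), 22 of them higher, where this held for 72.5% of all tested genes. Each of the 13 rises had a positive change with any 1 array left out. The number of calls depended on the arrays more strongly: 3 of the 13 (Pfkl, Aldoc and Eno2) passed without control 1, 9 without control 2 and 0 without either fluoxetine array, in fits that called 0 genes in the whole table without fluoxetine 1 or without fluoxetine 2 and in which 13 members had a positive change at an unadjusted p under 0.05 in each case.

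**Figure D1:**
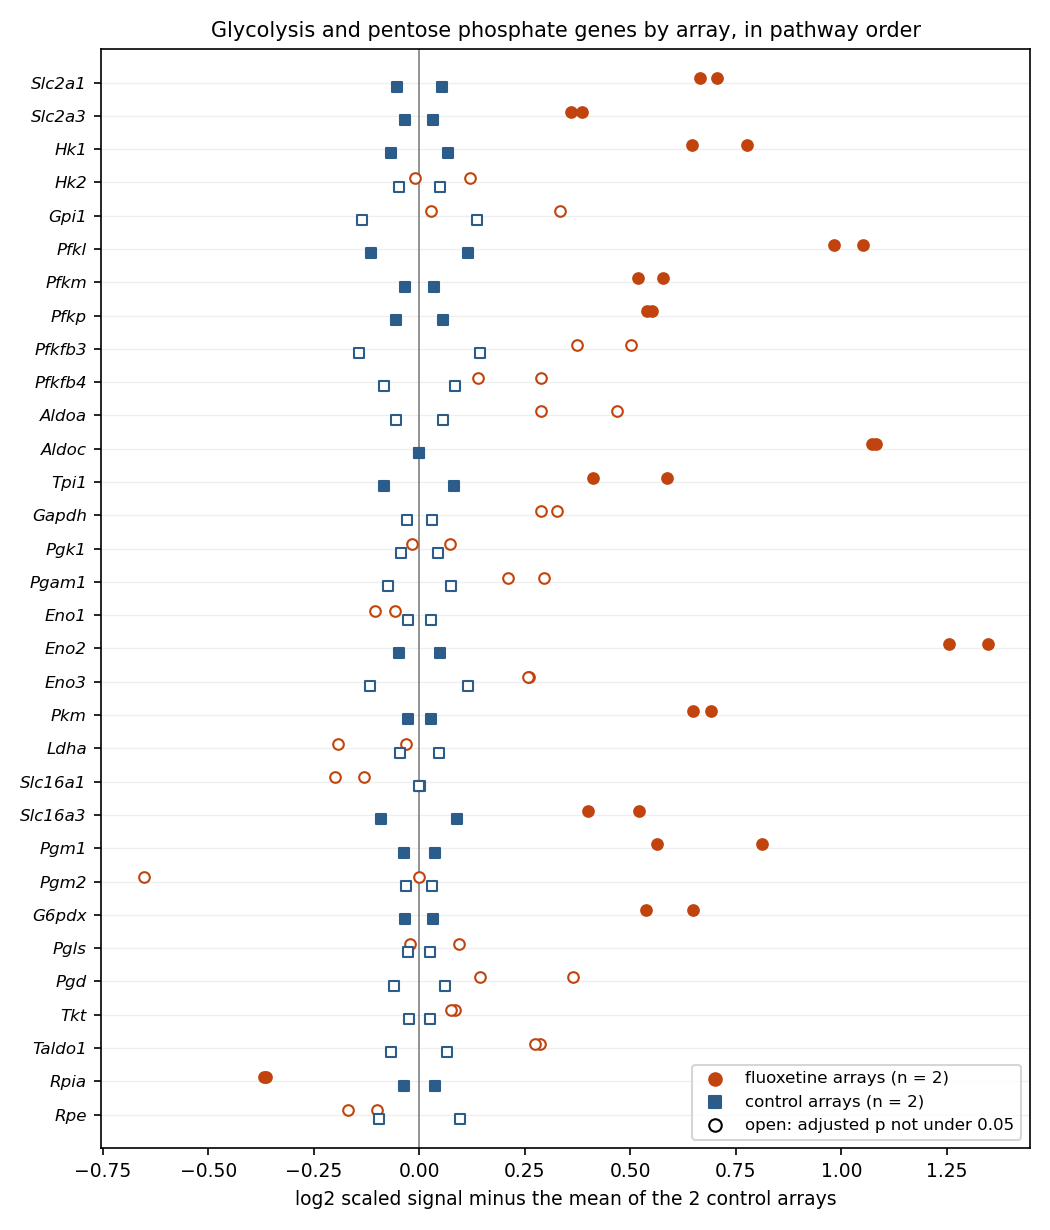
Log2 scaled signal of the 32 tested genes on each array, in pathway order from top to bottom, as the difference from the mean of the control arrays (circles, 2 fluoxetine arrays; squares, 2 control arrays). Filled symbols mark the 14 genes that passed. Eno2, Aldoc and Pfkl lie farthest to the right in fluoxetine cells, and Rpia is the filled gene to the left.

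**Figure D2:**
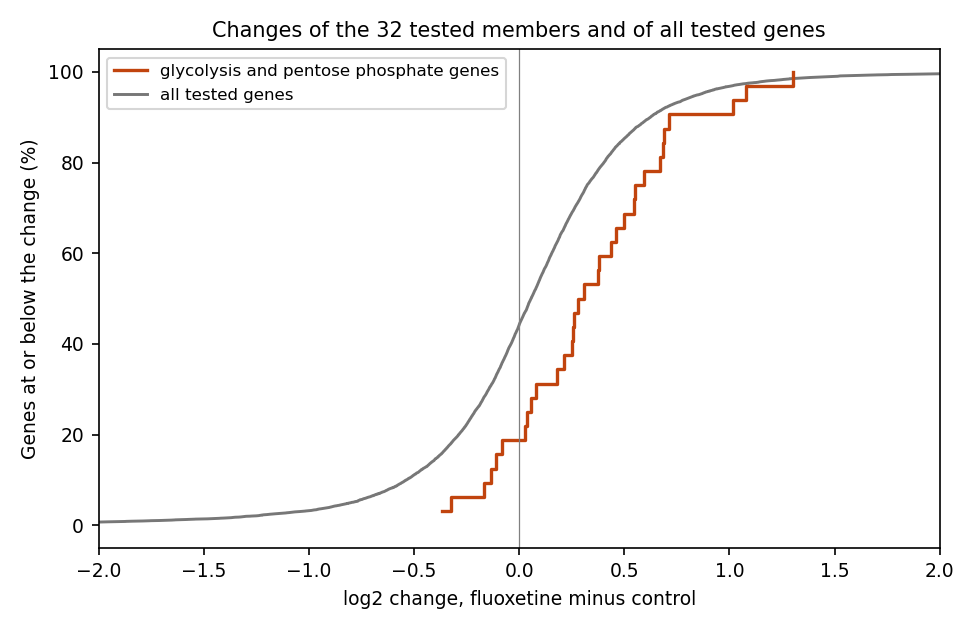
Cumulative share of genes (vertical axis, percent) at or below a given log2 change, fluoxetine minus control (horizontal axis), for the 32 tested members and for all 13539 tested genes, drawn between -2 and 2. The curve of the members lies to the right of that of all genes over most of its course, with medians of 0.29 and 0.06.

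Promoter windows of 32 of the 33 genes were found in the RefSeq table (build GRCm38.p6, 250 bases before to 50 after the start, 45 windows), Slc2a3 being the gene with none there. The letters ACGTG, the core of the element bound by hypoxia-inducible factors, were searched on both strands, with each CACGTG, the E-box, counted on both. They occurred in a window of 17 of the 32 genes (53.1%), against 28.3% of the 10796 tested genes in the table, and a gene with several windows had several chances. Of the genes that rose, 8 of 12 held them, and of those that did not pass, 9 of 18 did. CACGTG was found in 4 members (11.1% of tested genes), TGACTCA, the AP-1 site, in 1 (4.99%) and TGATGCA, the core of the CEBP-ATF element, in 0 (2.45%). The windows of 5 genes are printed as examples, with ACGTG or its reverse complement in capitals. Eno2, Aldoc and Slc2a1 rose, and Ldha and Pgk1 did not pass. No printed window of a gene that did not pass lacks the letters, so these 5 do not stand for the counts above.
Eno2 (chr6:124769624-124769923, strand -): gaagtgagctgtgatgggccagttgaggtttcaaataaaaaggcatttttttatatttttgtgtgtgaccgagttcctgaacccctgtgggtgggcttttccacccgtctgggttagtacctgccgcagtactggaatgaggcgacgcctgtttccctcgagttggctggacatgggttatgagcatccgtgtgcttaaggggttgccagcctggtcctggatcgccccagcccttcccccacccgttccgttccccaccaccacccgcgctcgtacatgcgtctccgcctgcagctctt
Aldoc (chr11:78322823-78323122, strand +): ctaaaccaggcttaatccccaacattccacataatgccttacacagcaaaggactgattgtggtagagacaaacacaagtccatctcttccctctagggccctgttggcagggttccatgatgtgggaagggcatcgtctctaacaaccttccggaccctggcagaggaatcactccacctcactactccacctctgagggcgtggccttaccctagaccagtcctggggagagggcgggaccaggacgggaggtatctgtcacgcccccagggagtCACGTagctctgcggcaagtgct
Slc2a1 (chr4:119108495-119108794, strand +): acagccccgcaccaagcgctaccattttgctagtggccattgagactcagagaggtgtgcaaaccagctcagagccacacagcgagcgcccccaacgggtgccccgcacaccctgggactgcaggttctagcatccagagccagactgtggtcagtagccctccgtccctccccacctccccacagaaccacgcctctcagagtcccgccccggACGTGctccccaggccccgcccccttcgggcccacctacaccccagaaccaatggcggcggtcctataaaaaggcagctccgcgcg
Ldha (chr7:46845554-46845853, strand +): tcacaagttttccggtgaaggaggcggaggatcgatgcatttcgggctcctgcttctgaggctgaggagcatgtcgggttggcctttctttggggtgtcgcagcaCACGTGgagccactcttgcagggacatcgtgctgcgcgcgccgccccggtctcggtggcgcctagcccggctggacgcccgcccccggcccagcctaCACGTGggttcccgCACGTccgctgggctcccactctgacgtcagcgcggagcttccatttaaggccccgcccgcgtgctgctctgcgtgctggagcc
Pgk1 (chrX:106186850-106187149, strand +): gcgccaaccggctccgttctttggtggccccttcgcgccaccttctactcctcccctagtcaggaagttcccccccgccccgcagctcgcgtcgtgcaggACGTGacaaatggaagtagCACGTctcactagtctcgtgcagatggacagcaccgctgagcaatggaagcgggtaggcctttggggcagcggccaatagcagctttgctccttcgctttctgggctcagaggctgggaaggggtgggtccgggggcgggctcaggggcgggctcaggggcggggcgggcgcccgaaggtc
Aldoc and Ldha also have a second window, without a match. The window of Eno2 held no match, those shown of Aldoc and Slc2a1 held 1 each, that of Pgk1 held 2 and that shown of Ldha held 5, with 2 E-boxes counted on both strands. A match is a run of letters and not a bound site, and no binding was measured.

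Both glucose carriers rose, where 16.8% of all tested genes rose. Slc2a1, the widely expressed carrier GLUT1, had a scaled signal of 39.5 and 38.4 in fluoxetine cells, against 23.3 and 25.1 in control cells, and rose by 0.69 ± 0.08 (adjusted p = 0.0162, limma). Slc2a3, the high-affinity carrier GLUT3, had 143.0 and 145.6 in fluoxetine cells, against 108.9 and 114.1 in control cells, and rose by 0.37 ± 0.08 (adjusted p = 0.0364, limma). For each carrier, both fluoxetine arrays lay above both control arrays, where the groups did not overlap for 72.5% of all tested genes. The second kept probe of Slc2a3 stood at 0.01 ± 0.08, so the rise of this gene rests on its brighter probe. With the mean of its probes it did not pass, and it passed in 7 of the 15 alternatives.

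The upper steps, from hexokinase to triose phosphate isomerase, hold 11 tested genes, of which 6 rose, 0 fell and 5 did not pass. Of all tested genes, 16.8% rose and 10.2% fell. All 11 had a positive change with the main processing, where the median change over all tested genes was itself 0.06. Among alternatives, Hk2 stood at -0.0068 under quantile normalization, -0.0024 with scaling to detected probes and -0.0092 without fluoxetine 1, and Gpi1 at -0.0101 with normexp and -0.18 by another kept probe. The hexokinases phosphorylate glucose and so keep it in the cell. Hk1, the broadly expressed form, had 97.7 and 89.2 in fluoxetine cells, against 54.4 and 59.7 in control cells, and rose by 0.71 ± 0.10 (adjusted p = 0.0193, limma). Hk2, the form typical of muscle, fat and many tumours, had 10.1 and 9.24 in fluoxetine cells, against 9.62 and 8.996 in control cells (0.06 ± 0.09), and its groups overlapped.

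All 3 phosphofructokinase genes rose, where 16.8% of all tested genes rose. Pfkl, the liver form, had 4.08 and 4.28 in fluoxetine cells, against 1.91 and 2.24 in control cells, and rose by 1.02 ± 0.11 (adjusted p = 0.0145, limma). Pfkm, the muscle form, had 16.6 and 16.0 in fluoxetine cells, against 10.9 and 11.4 in control cells, and rose by 0.55 ± 0.08. Pfkp, the platelet form, had 25.3 and 25.5 in fluoxetine cells, against 16.7 and 18.1 in control cells, and rose by 0.55 ± 0.08. The second kept probe of Pfkp stood at 0.41 ± 0.17 and did not pass when probes were tested singly. The groups did not overlap for any of the 3 genes, where this held for 72.5% of all tested genes. The genes for the enzymes that make and degrade fructose 2,6-bisphosphate, an activator of phosphofructokinase, did not pass. Pfkfb3 had 4.42 and 4.05 in fluoxetine cells, against 2.83 and 3.45 in control cells (0.44 ± 0.13, adjusted p = 0.0786, limma), and Pfkfb4 stood at 0.21 ± 0.11.

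Among the aldolases, which split the phosphorylated hexose into a pair of trioses, Aldoc, the form typical of brain, had 7.67 and 7.63 in fluoxetine cells, against 3.62 and 3.62 in control cells. It rose by 1.08 ± 0.07 (adjusted p = 0.00982, limma), and its second probe rose by 1.56 ± 0.11 when probes were tested singly. Aldoa, the muscle and ubiquitous form, had 365.3 and 322.4 in fluoxetine cells, against 253.9 and 274.3 in control cells (0.38 ± 0.10, adjusted p = 0.0641, limma), so it did not pass although its groups did not overlap. Tpi1, which interconverts the trioses, had 86.9 and 77.0 in fluoxetine cells, against 54.6 and 61.3 in control cells, and rose by 0.50 ± 0.11 (adjusted p = 0.0426, limma). Gpi1, which turns glucose 6-phosphate into fructose 6-phosphate, had 123.6 and 100.1 in fluoxetine cells, against 89.3 and 107.8 in control cells by its brightest probe (0.18 ± 0.16), with overlapping groups.

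The lower steps, from Gapdh to Pkm, hold 7 genes, of which 2 rose, 0 fell and 5 did not pass. Over all tested genes, 16.8% rose and 10.2% fell. Eno2, the enolase typical of neurons, had 7.89 and 7.41 in fluoxetine cells, against 2.9998 and 3.21 in control cells, and rose by 1.30 ± 0.09 (adjusted p = 0.00982, limma). Of 4 neural markers 3 were tested, with a summed scaled signal of 3.32 and 3.78 in fluoxetine cells, against 4.91 and 4.57 in control cells, and Rbfox3 was too dim in both. These markers went both ways, since Syp rose by 0.54, Snap25 fell by 1.87 (log2) and Tubb3 stood at -0.08 without passing. The part of neural-type cells in the rises of Eno2 and Aldoc was not tested. The other enolases did not pass. Eno1, the ubiquitous form, had 110.6 and 114.2 in fluoxetine cells, against 121.1 and 116.7 in control cells (-0.08 ± 0.08), a change that turned positive (0.13) under median centring. A close copy of Eno1, Eno1b, is annotated in the mouse genome, and the array may not tell them apart. Eno3, the muscle form, had 16.6 and 16.6 in fluoxetine cells, against 12.8 and 15.0 in control cells (0.26 ± 0.11).

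Pkm, the pyruvate kinase gene of most tissues and tumours, had 144.2 and 140.0 in fluoxetine cells, against 87.6 and 91.0 in control cells, and rose by 0.67 ± 0.08 (adjusted p = 0.0152, limma). Its second probe rose by 0.72 ± 0.11 when probes were tested singly. Gapdh, often used as a reference gene, had 188.7 and 183.9 in fluoxetine cells, against 147.6 and 153.7 in control cells, with no overlap (0.31 ± 0.08, adjusted p = 0.0528, limma). Pgk1, the ATP-yielding phosphoglycerate kinase, had 217.3 and 204.4 in fluoxetine cells, against 200.5 and 213.1 in control cells (0.03 ± 0.08), and Pgam1, the next enzyme, stood at 0.25 ± 0.09. Processed copies of Gapdh exist in the mouse genome, and whether its probes read them was not tested.

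At the lactate end, 1 of 3 tested genes rose, where 16.8% of all tested genes rose. Slc16a3, the lactate exporter MCT4, had 8.42 and 9.15 in fluoxetine cells, against 5.99 and 6.79 in control cells, and rose by 0.46 ± 0.10 (adjusted p = 0.0443, limma). Its groups did not overlap and its change was positive under all 15 alternatives, but it passed in 6 of them. Quantile normalization, scaling to detected probes, the fit without a dim-probe filter and both replicate blocks were among those where it did not pass. Slc16a1, the carrier MCT1, had 14.7 and 15.4 in fluoxetine cells, against 16.9 and 16.9 in control cells (-0.17 ± 0.08, adjusted p = 0.174, limma), and its change was 0.05 under median centring. Ldha, which reduces pyruvate to lactate, had 85.7 and 76.7 in fluoxetine cells, against 84.8 and 90.4 in control cells (-0.11 ± 0.10), with overlapping groups, and its change was 0.10 under median centring. Ldhb, the heart form, was not well above background on any array by either of its probes, so it was not tested.

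Of the genes with phosphoglucomutase symbols, Pgm1, which links glucose 6-phosphate with glycogen, had 5.71 and 6.79 in fluoxetine cells, against 3.96 and 3.77 in control cells. It rose by 0.69 ± 0.12 (adjusted p = 0.0262, limma). Pgm2 had 0.468 and 0.297 in fluoxetine cells, against 0.478 and 0.458 in control cells (-0.33 ± 0.24). The fluoxetine arrays of Pgm2 lay farther apart than those of any other tested member, and without fluoxetine 2 its change was near 0. Mouse symbols of these genes have been exchanged in the past, and they are given here as in the RefSeq table. Whether Pgm1 and Pgm2 serve the same step in these cells was not tested.

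In the pentose phosphate pathway, 1 of 7 genes rose, 1 fell and 5 did not pass, with a median change of 0.08. With 16.8% of all tested genes higher and 10.2% lower, these counts are near those of all genes. G6pdx, the enzyme that commits glucose 6-phosphate to the oxidative arm, had 23.5 and 21.8 in fluoxetine cells, against 14.7 and 15.3 in control cells, and rose by 0.59 ± 0.08 (adjusted p = 0.0205, limma). The next enzymes of that arm, Pgls, the lactonase, and Pgd, which yields the second NADPH, did not pass. Pgd had 38.9 and 33.4 in fluoxetine cells, against 29.0 and 31.5 in control cells (0.25 ± 0.11), without overlap, and Pgls stood at 0.04 ± 0.08 with overlapping groups. In the non-oxidative arm, Rpia, which makes ribose 5-phosphate from ribulose 5-phosphate, had 4.38 and 4.397 in fluoxetine cells, against 5.80 and 5.51 in control cells, and fell by 0.37 ± 0.08 (log2, adjusted p = 0.0379, limma). Its change was negative under all 15 alternatives, but it passed in 6 of them and in none that left out an array. Rpe, the epimerase acting on the same substrate (-0.14 ± 0.10), and Tkt, transketolase (0.08 ± 0.07), did not pass. Taldo1, transaldolase, had 59.3 and 58.7 in fluoxetine cells, against 46.4 and 50.9 in control cells, and did not pass either (0.28 ± 0.09, adjusted p = 0.081, limma).

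The isoenzymes of a step were set against each other as a ratio within each array, which does not depend on the scaling between arrays by percentile or median. Among the phosphofructokinases and the enolases, pairs share genes, so the pairs counted here are not separate from each other. Of 13 pairs listed, 12 could be computed, and the groups did not overlap for 11 of them, where 72.3% of all pairs of tested genes did not overlap. Each of these 11 had an exact permutation p of 0.333 (two-sided, adjusted p = 0.363 over 12 pairs), the smallest that 2 arrays against 2 allow, so no pair passed a test.

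The log2 ratio of Eno2 to Eno1 was -3.81 and -3.95 in fluoxetine cells, against -5.34 and -5.18 in control cells, a difference of 1.38 (pooled SD 0.10). Eno2 over Eno3 differed by 1.04 (pooled SD 0.08) and Eno3 over Eno1 by 0.34 (pooled SD 0.15). The log2 ratio of Aldoc to Aldoa was -5.57 and -5.40 in fluoxetine cells, against -6.13 and -6.24 in control cells, a difference of 0.70 (pooled SD 0.10). These ratios were thus higher with fluoxetine on both arrays for the brain-type forms.

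The log2 ratio of Hk2 to Hk1 was -3.27 and -3.27 in fluoxetine cells, against -2.50 and -2.73 in control cells, a difference of -0.66 (pooled SD 0.12). Slc16a3 over Slc16a1 differed by 0.63 (pooled SD 0.09) and Slc2a1 over Slc2a3 by 0.31 (pooled SD 0.04). All 3 phosphofructokinase genes rose, and the ratio of Pfkl to Pfkm differed by 0.47 (pooled SD 0.10) and that of Pfkl to Pfkp by 0.47 (pooled SD 0.07). Pfkp over Pfkm was 0.61 and 0.68 in fluoxetine cells, against 0.62 and 0.67 in control cells, and this was the pair whose groups overlapped. Pfkfb4 over Pfkfb3 differed by -0.22 (pooled SD 0.06), and Pgm2 over Pgm1 by -1.01 with a pooled SD of 0.45.

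**Figure D3:**
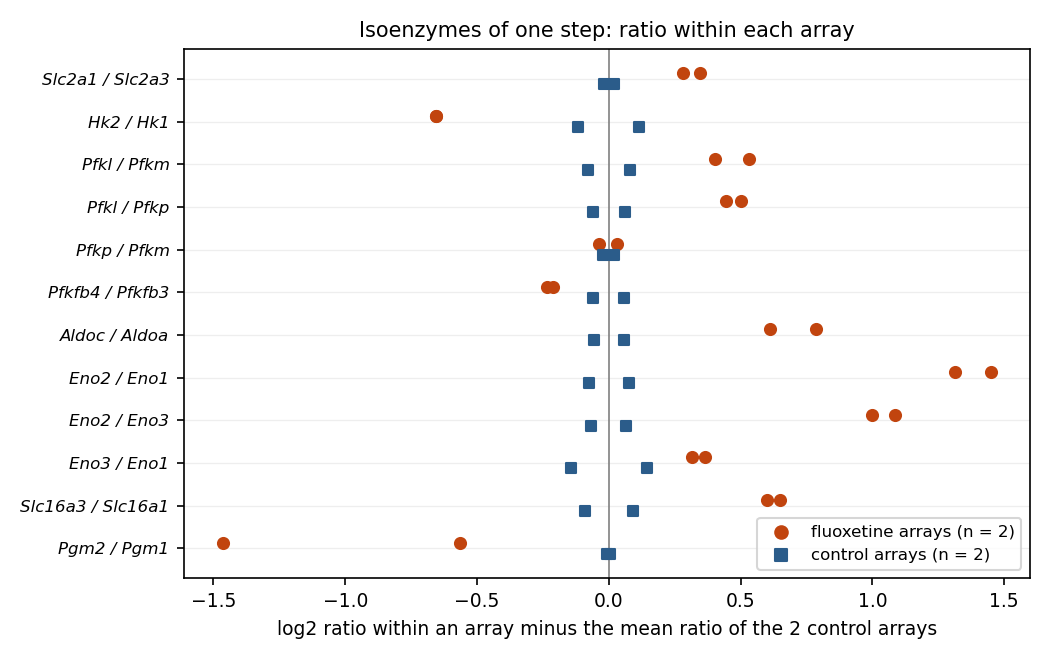
Log2 ratio of each pair of isoenzymes within an array, as the difference from the mean ratio of the control arrays (circles, 2 fluoxetine arrays; squares, 2 control arrays). Eno2 over Eno1 lies farthest to the right at a difference of 1.38, Pfkp over Pfkm overlaps, and the fluoxetine arrays of Pgm2 over Pgm1 lie far apart.

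The members had 58 probes, of which 53 were bright enough to keep. Tested singly, with adjustment over all 28270 kept probes, 17 member probes rose and 1 fell, where 12.6% of all kept probes rose and 25.6% passed in either direction. In this fit, added after the data were seen, the probes of Tpi1 ranged from 0.22 to 0.65. The probe at 0.65 rose, while the brightest, which stands for the gene, was at 0.50 and did not pass (adjusted p over probes = 0.052, limma). The Tpi1 probe at 0.22 and the only probe of Slc16a3 did not pass either. Those of Gapdh ranged from 0.07 to 0.54 over 6 probes, 1 of which rose. The probes of Gpi1 disagreed: they stood at -0.18 ± 0.24, 0.18 ± 0.17 and 0.87 ± 0.11, and the last of them rose (adjusted p over probes = 0.0208, limma). That probe read 5.51 and 5.58 in fluoxetine cells, against 4.57 and 4.79 in control cells, in log2 scaled signal, so its groups were apart while those of the brighter probes overlapped. The dimmer probe of Taldo1 rose (0.54 ± 0.09), whereas its brighter probe did not pass.

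**Figure D4:**
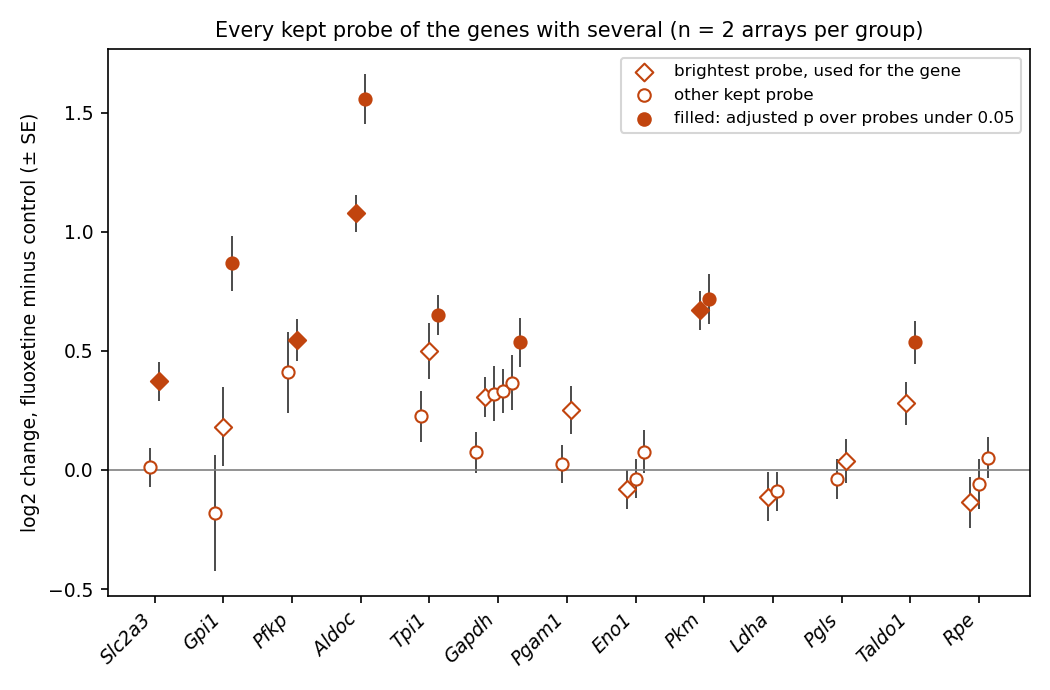
Log2 change with its standard error (n = 2 arrays per group) for every kept probe of the 13 members that have several. Diamonds are the brightest probe, which stands for the gene, circles are the others, and filled symbols passed over all kept probes. The probes of Gpi1 spread from -0.18 to 0.87, and those of Pkm lie close together.

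Of 82 further genes of glucose metabolism (other glycolytic and gluconeogenic forms, carriers, glycogen, polyol, hexosamine and pyruvate genes), 56 were tested, 12 rose, 2 fell and 42 did not pass, with a median change of 0.19. The 12 make up 21.4% of those tested, against the 16.8% of all genes. The carrier gene Slc2a6 rose by 1.30 ± 0.11, Pck2, the mitochondrial phosphoenolpyruvate carboxykinase, by 1.17 ± 0.19, Sord, the sorbitol dehydrogenase of the polyol pathway, by 1.02 ± 0.08, and Pygb, the brain glycogen phosphorylase, by 1.00 ± 0.09. The second kept probe of Pygb stood at 0.05 ± 0.14, while those of Slc2a6, Pck2 and Sord rose when probes were tested singly. Gfpt2, an entry enzyme of hexosamine synthesis, rose by 0.94 ± 0.18. Its scaled signal was 0.135 and 0.158 in fluoxetine cells, against 0.066 and 0.087 in control cells. Slc2a9, a urate and hexose carrier gene, fell by 1.09 ± 0.11 (log2). The gene for basigin, Bsg, the partner protein that carries MCT1 and MCT4 to the cell surface, rose by 0.74 ± 0.08. The other gene that fell was the glycerol phosphate dehydrogenase gene Gpd1 (-0.53 ± 0.11). Its scaled signal was 0.205 and 0.172 in fluoxetine cells, against 0.266 and 0.275 in control cells. Tested singly, its kept probe did not pass (adjusted p over probes = 0.0501, limma). The related genes Gpd1l (0.87 ± 0.10) and Gpd2 (0.49 ± 0.08) rose, while another kept probe of Gpd1l stood at -0.13 ± 0.08. Bsg and these 3 genes are named after their values were seen.

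Of 13 tested regulators of glucose metabolism, 3 rose, 0 fell and 10 did not pass, a count near the 16.8% of all tested genes that rose. The 3 were Mlxip (0.95 ± 0.15), the coactivator gene Ppargc1a (0.73 ± 0.16) and Txnip (0.55 ± 0.09). Mlxip encodes the glucose-sensing factor MondoA, and the product of Txnip restrains glucose uptake. Of the 10 that did not pass, Myc, Nfe2l2 and Sirt6 each had a dimmer kept probe that rose when probes were tested singly. The dimmer kept probes of Arrdc4 and Atf4 did not pass. The probes of Myc disagreed in sign, with the brightest at -0.26 ± 0.08 and the dimmer at 0.39 ± 0.08. These genes are named after their values were seen. Hif1a, a hypoxia-inducible factor gene named here after its value was seen, stood at 0.13 ± 0.10 without passing. This value is of RNA alone, and the activity of hypoxia-inducible factors was not tested.

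The changes of the 14 genes that passed were recomputed with each array left out. Aldoc moved least, between 1.07 and 1.08, and Eno2 stayed between 1.25 and 1.35. Pgm1 lay between 0.56 and 0.81, Slc16a3 between 0.37 and 0.55 and Tpi1 between 0.41 and 0.59, with the lowest value of Pgm1 without fluoxetine 2, that of Slc16a3 without control 1 and that of Tpi1 without fluoxetine 1.

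**Figure D5:**
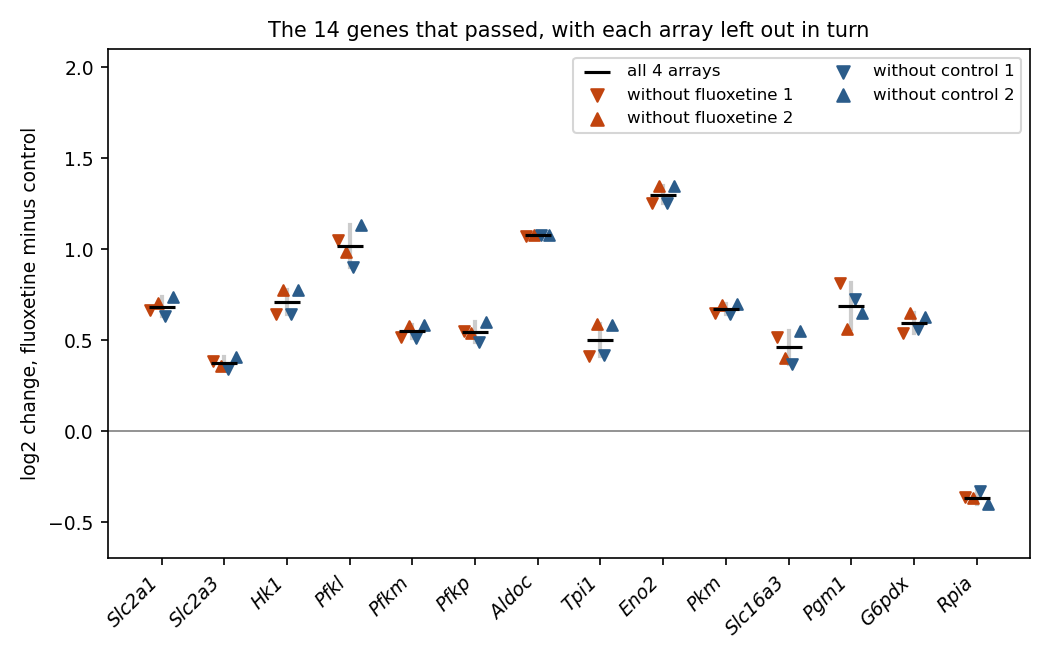
Log2 change of the 14 genes that passed, with all 4 arrays (bars) and with each array left out in turn (triangles). All 13 rises stay above 0 and Rpia stays below it. Eno2 ranges from 1.25 to 1.35.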

How the data were processed

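The deposited values are linear spot intensity from 4 single-colour (Cy3) Agilent arrays. Per the file headers, the authors used Feature Extraction 12.1.0.3, which subtracted background without scaling arrays to each other. Marks set by that software (other deposited columns) served as filters. Complementary RNA came from 10 ng of RNA, per the labels' protocols.

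With R 4.3.3 and limma 3.58.1, non-uniform and outlying spots were dropped (47 probes lost), spots of a probe averaged in log2, and each array's 75th percentile over distinct probes subtracted. This percentile replaced one over all spots after the results of both had been seen, because an earlier description of these data used it. Both gave the same 13 rises and 1 fall among the members, with changes shifted by 0.03. Symbols came from RefSeq GRCm38.p6 by accession: of 56558 probes, 34645 had 1 symbol and 21913 none. Probes well above background on both arrays of a group were kept, and a gene's brightest kept probe stands for it. Group was the only term of lmFit and eBayes over 13539 genes. The procedure was tested on simulated data with independent noise for each gene, which checked the sign and size of added changes. The simulation held no effect of array or position and set no limit on false calls. Pair ratios were tested with scipy 1.17.1. The number of arrays limits the precision.

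The members and lists were chosen with earlier results of these data known. All members are accounted for, with values for each array where a gene passed and for its isoenzymes. Of other lists, up to 6 called genes are named, by size of change, plus Bsg, Gpd1, Gpd1l and Gpd2, chosen after their values were seen. Of the marker lists not given above, 1 of 4 erythroid genes was tested (Hba-a1, which rose by 2.09 ± 0.09), as were 1 of 4 endothelial (none passed), 0 of 5 muscle and 3 of 4 neural genes (given above). Epithelial Krt14 fell by 2.15. Of 7 mesenchymal genes tested, Sparc fell by 0.62 and Col1a1 by 0.43, and Col1a2 passed as lower but was not well above background with fluoxetine. The alternatives were background correction (normexp, offset 50, on the median signal, since the files carry no mean signal column), scaling, dim-probe filter, probe choice, variance trend, replicate block and left-out arrays.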

Additional observations from a re-analysis of the deposited data

How the results depend on the processing

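All 13 rises kept a positive change and Rpia a negative one under the 15 alternatives. Of 480 member values recomputed, 369 kept direction and side of the threshold, 73 lost a call, 21 gained one and 17 turned sign, all 17 among genes that had not passed. Where the cause of a change is not given below, the cause was not tested. Median centring moved the median of all genes by 0.21, to 0.27, and the members' median to 0.51, so that the distance between them stayed at 0.24. It called 6292 genes, 87.1% of them higher, against 3653 and 62.3%, with 22 members higher and 0 lower and 32 other glucose metabolism genes higher and 1 lower. Without a filter on dim probes, 23771 genes were tested, 0 genes of any kind were called by limma, and 15 members were higher at an unadjusted p under 0.05. With arrays left out in turn, where a lone array is assumed to vary like the other group, calls ran from 0 to 2661 over all genes, from 0 to 9 for members that rose and were 0 for members that fell. The same fits gave 0 to 10 other glucose metabolism genes that rose and 0 to 3 that fell. Members that fell also numbered 0 under normexp, and other genes that fell numbered 1 under quantile normalization. The replicate numbers share no stated culture or day, and the deviations of same-numbered arrays were only weakly opposed (r = -0.117 over 13539 genes). With the replicate block, 1836 genes were called, with 7 members higher, 0 lower and 1 other gene lower. With the crossed pairing, an alternative chosen after seeing the data, 2679 genes were called, with 11 members higher, 0 lower and 1 other gene lower.

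Among genes that had not passed, signs turned as follows. Hk2 was at -0.0068 with quantile normalization and -0.0024 with scaling to detected probes. Gpi1 was at -0.0101 with normexp and -0.18 by its other probe. Pgk1 was at -0.0592 with normexp, -0.0301 with detected probes and -0.0043 with the percentile over spots, the scaling first run, which the main one replaced after both had been seen. Pgls was at -0.0209 with detected probes, -3.55e-05 with the mean of its probes and -0.0371 by its other probe. Median centring gave 0.13 for Eno1, 0.10 for Ldha, 0.0487 for Slc16a1 and 0.0785 for Rpe, and other probes gave 0.0776 for Eno1 and 0.0517 for Rpe. With arrays left out, Hk2 ran from -0.0092 to 0.12, Pgk1 from -0.0165 to 0.072, Pgls from -0.0211 to 0.0952 and Pgm2 from -0.65 to 0.00031.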
